A study of Mus musculus with 21 samples.

Results

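Tenocytes are the fibroblasts of tendon. In the single-cell tables of regenerating mouse tibialis anterior muscle described here they were the cells to which the authors' clustering after Harmony integration gave the name Tenocytes, and they were taken by that deposited label alone. There were 1134 of them among 87822 cells, or 1.29%, and every one of the 21 mice contributed between 9 and 164. The study followed single cells of muscle through injury and repair, each sample being 1 muscle preparation from 1 C57Bl/6J female of 20 months. The toxin was notexin, a phospholipase from snake venom to which myofibers succumb, and both tibialis anterior muscles of an injured mouse were injected. Muscles were taken uninjured (4 mice) or at 1 (4 mice), 2 (3 mice), 3.5 (4 mice), 5 (3 mice) or 7 (3 mice) days post-injury (dpi), and mice are called A to D within a group, as in the sample labels. All animals were of this single strain, sex and age, and the uninjured mice were the controls.

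Tenocytes make and align the collagen fibers that join muscle to bone, and they are known for the transmembrane protein tenomodulin (Tnmd), the transcription factor scleraxis (Scx) and the small leucine-rich proteoglycan fibromodulin (Fmod). In a muscle digest they come from tendon and from the connective tissue at the muscle's ends. Their closest relatives in muscle are the fibro-adipogenic progenitors (FAPs), interstitial mesenchymal cells that multiply after injury, deposit matrix, feed muscle stem cells and are then cleared. The FAPs were deposited as 3 subtypes, pro-remodeling (6580 cells), adipogenic (3360 cells) and stem (2210 cells), which are the types set beside tenocytes here. Together these FAPs were 12150 cells, or 13.8% of all cells.

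The tables held totals and gene set shares per cell rather than values per gene, so Tnmd, Scx and Fmod could not be looked up and the tenocyte label was not checked against its markers. It was set against the labels that the same cells carried under the other clusterings. Libraries held between 974 and 10556 cells and between 5602464 and 70730171 unique molecular identifiers (UMIs, molecules counted after correction for ambient RNA). The uninjured libraries stood apart in mitochondrial share and in barcodes kept, and were low in reads in cells. Of their reads 44.2 to 56.3% lay in cells, a range that held 1 dpi mouse B (47.7%). The other injured libraries had 66.5 to 94.8%. The median cell of uninjured libraries drew 8.25 to 18.4% of its UMIs from mitochondrial genes, against 2.96 to 7.62% in injured ones. Between 25.3 and 49.5% of the barcodes of uninjured libraries were left as cells in the tables, and 54.3 to 83.2% of those of injured libraries. Of the tenocyte barcodes, 27 (2.38%) also occurred in another library, close to the 2.20% of all cells, and 2 of these barcodes were tenocytes in both libraries. A tenocyte had between 1040 and 61265 UMIs (median 7805) and between 527 and 7262 genes (median 2593). The study's minimum was 750 genes, and 34 tenocytes lay under it in the deposited table.

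The question of the time course was how the tenocyte share of the muscle's cells moved through injury and repair. Tenocytes were 2.53% ± 1.68 (SD, n = 4) of the cells of uninjured muscle and 0.513% ± 0.0739 (n = 4) at 3.5 dpi, the lowest group mean, and their share at 7 dpi was 2.03% ± 0.142 (n = 3). Uninjured mice differed widely, and the differences over time did not pass the test under the Harmony label. Uninjured mice A to D held 17 tenocytes of 2267 cells (0.750%), 164 of 3413 (4.81%), 111 of 5029 (2.21%) and 23 of 974 (2.36%). The exact Clopper-Pearson 95% intervals, which cover counting error only, were 0.437 to 1.20% for mouse A and 4.11 to 5.58% for mouse B, so the spread among uninjured muscles was wider than counting error. At 1 dpi the counts in mice A to D were 9 of 2912 (0.309%), 9 of 1197 (0.752%), 160 of 4530 (3.53%) and 36 of 3838 (0.938%), and mouse C alone held 160 of the 214 tenocytes of this time point.

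From 2 to 5 dpi the shares were low in nearly every mouse. At 2 dpi, mice A to C had 41 of 10556 (0.388%), 34 of 4598 (0.739%) and 29 of 3184 (0.911%). The 4 mice at 3.5 dpi were the most alike of the early groups, with 14 of 3131 (0.447%), 16 of 2631 (0.608%), 36 of 6746 (0.534%) and 18 of 3895 (0.462%). All 4 lay under every uninjured mouse. The counts at 5 dpi were 39 of 5321 (0.733%), 113 of 8472 (1.33%) and 13 of 2655 (0.490%), which still overlapped uninjured mouse A. At 7 dpi they were 125 of 5968 (2.09%), 79 of 4241 (1.86%) and 48 of 2264 (2.12%), all above the 5 dpi mice and within the range of the uninjured group.

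**Figure D1:**
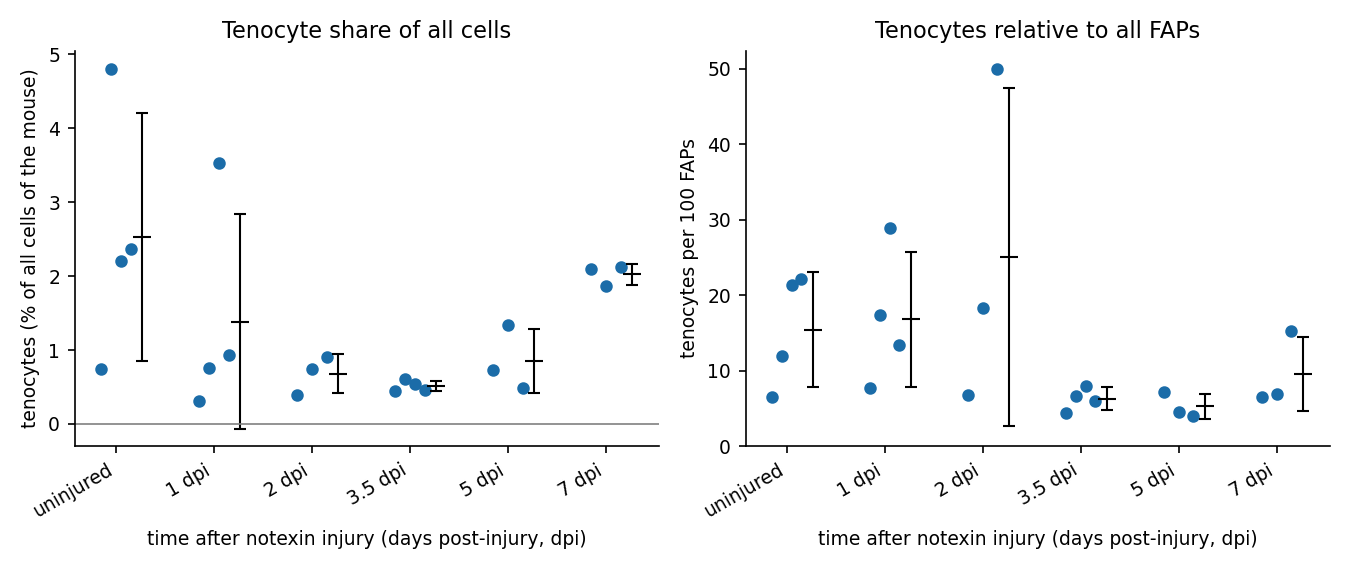
Left, tenocytes as a percent of all cells of each mouse against days after notexin, and right, tenocytes per 100 FAPs. Points are mice, and bars are the group mean ± SD (3 or 4 mice). The left panel shows the spread of uninjured mice from 0.750 to 4.81%, the low 3.5 dpi group between 0.447 and 0.608%, and 7 dpi mice between 1.86 and 2.12%. In the right panel the 3.5 dpi mice lie between 4.36 and 8.02 tenocytes per 100 FAPs.

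Across the 6 time points the tenocyte share gave a permutation p of 0.0510 (F statistic of arcsine square root shares, 21 mice, 100000 resamples), and 0.0592 after Benjamini-Hochberg adjustment over the 23 cell types. Of these types 18 passed (78.3%), and tenocytes were among the 5 that did not. In exact two-sided permutation tests of single times, 3.5 dpi lay 2.02 percentage points under uninjured muscle (SE 0.841, p = 0.0286, adjusted over 9 contrasts 0.225). This p is the smallest that 4 mice against 4 can give, and 82.6% of the types had no overlap between mice in that contrast. Tenocyte shares overlapped uninjured mice at 1, 2, 5 and 7 dpi, where 43.5, 65.2, 60.9 and 52.2% of types did not. The rise from 5 to 7 dpi was 1.17 points (SE 0.264, exact permutation p = 0.1, adjusted 0.225), with p at its smallest possible value for 3 against 3, and 39.1% of types had no overlap there. None of the 9 contrasts passed after adjustment, compared with 12.6% of the 207 contrasts over all types, while 1 (3.5 dpi against uninjured) had an unadjusted p under 0.05.

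The call depended on which cells were counted and on the scale. Each adjusted p given here is for the whole time course, not for the single time beside it. With tenocytes as labelled by BBKNN the same difference at 3.5 dpi was -2.30 points (permutation test, adjusted p = 0.0228, 85.2% of types called) and with the label before re-integration -2.19 (adjusted p = 0.0334, 90.5% called). Scanorama's label also passed over the time course (permutation test, adjusted p = 0.0107, 62.5% called), but its largest change was a rise of 4.44 points at 1 dpi, beside -1.90 at 3.5 dpi. With the Harmony label on a centred log ratio scale the difference at 3.5 dpi was -2.87 log2 units (adjusted p = 0.0104, 91.3% called). The quasi-likelihood test of edgeR with TMM, over all times jointly, also passed (adjusted p = 0.00834, 95.7% called). Its log2 change was -1.89 at 3.5 dpi, beside -1.99 at 2 dpi and -2.20 at 5 dpi, so 3.5 dpi was not its lowest time. On the scale of the main test, leaving out 1 dpi mouse C, the mouse with the high share, gave an adjusted p of 0.0104, without 1 dpi mouse A it was 0.0466, and without uninjured mouse A 0.0185. Without uninjured mouse B, the mouse with the most tenocytes, the difference at 3.5 dpi was -1.26 points.

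A share falls either when tenocytes become fewer or when other cells arrive, and the 2 cannot be told apart in counts of captured cells. As a share of the 13 non-immune types, tenocytes were 0.769, 5.00, 2.26 and 2.42% in uninjured mice A to D, and 1.68, 2.21, 3.02 and 2.25% at 3.5 dpi. The groups overlapped, the difference was -0.322 points, and the permutation p over the time course was 0.962 after adjustment. At 1 dpi mouse C again stood high, with 15.8% of non-immune cells against 1.38, 1.27 and 3.57% in the other mice. On this denominator the means at 1, 2 and 7 dpi were above the uninjured mean.

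Set against FAPs alone, tenocytes held a smaller place at 3.5 and 5 dpi. For every 100 FAPs there were 6.46, 11.9, 21.3 and 22.1 tenocytes in uninjured mice A to D, and 7.76, 17.3, 28.8 and 13.3 at 1 dpi. At 2 dpi the numbers were 6.79, 18.3 and 50, the last being 29 tenocytes beside 58 FAPs. They were 4.36, 6.61, 8.02 and 6.00 at 3.5 dpi and 7.16, 4.57 and 4.02 at 5 dpi, and they were 6.47, 6.92 and 15.2 at 7 dpi. Uninjured mouse A lay among the 3.5 and 5 dpi mice, and the other uninjured mice lay above them. As a share of tenocytes plus FAPs the largest difference from uninjured muscle was -8.12 points at 5 dpi (SE 3.02), from 13.1% ± 5.79 (n = 4) to 4.97% ± 1.5 (n = 3), and the time course did not pass (permutation p = 0.0748). In the same permutation test it passed without uninjured mouse A (p = 0.0492) and without 2 dpi mouse A (p = 0.0126). Under a stricter filter on cells, given with the mitochondrial shares, the difference at 5 dpi was -3.15 points.

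Against single FAP subtypes, the ratio to adipogenic FAPs, the subtype named for its capacity to turn into fat cells, changed over time. The log2 ratio of tenocytes to adipogenic FAPs was -0.90 ± 0.72 in uninjured muscle (n = 4) and -0.56 ± 0.40 at 1 dpi (n = 4). It was lowest at 3.5 dpi (-2.07 ± 0.30, n = 4) and 5 dpi (-2.49 ± 0.48, n = 3), a difference of -1.59 from uninjured muscle at 5 dpi (permutation test over time, adjusted p = 0.00759). This was 1 of 3 ratios tested (33.3%). Ratios to pro-remodeling FAPs, the subtype named for matrix remodeling, differed by -1.60 at 5 dpi (permutation test over time, adjusted p = 0.0786), and ratios to stem FAPs gave an adjusted p of 0.395. The FAP subtype labels were also shared unevenly over time. BBKNN gave the same name to 97.8% ± 2.03 of Harmony's adipogenic FAPs in uninjured mice (n = 4), but to 10.1% ± 4.58 at 3.5 dpi (n = 4) and 19.8% ± 8.68 at 5 dpi (n = 3). For pro-remodeling FAPs it was 0.660% ± 0.472 in uninjured mice, 82.2% ± 16.6 at 1 dpi and 95.7% ± 1.73 at 3.5 dpi. For stem FAPs it was 75.6% ± 9.61 in uninjured mice and 36.7% ± 21.1 at 3.5 dpi. The part of the subtype labels in the ratios, and in the comparisons with FAP subtypes that follow, was not tested.

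The tenocyte label itself was less shared between clusterings at 3.5 dpi and in 1 mouse at 5 dpi. Each of the 3 integration methods had been clustered and named on its own by the authors. Of the 1134 Harmony tenocytes, 982 (86.6%) were also tenocytes under BBKNN and 969 (85.4%) under Scanorama. BBKNN called 139 (12.3%) of them pro-remodeling FAPs, while Scanorama called 130 (11.5%) adipogenic FAPs and 14 (1.23%) committed progenitors, a myogenic type. Both methods kept the name for 940 cells (82.9%), and neither did for 123 (10.8%). Before the authors' final integration 1074 (94.7%) already carried the name and 57 (5.03%) were pro-remodeling FAPs.

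In uninjured mice A to D, BBKNN gave the tenocyte name to 100, 98.2, 97.3 and 95.7% of Harmony tenocytes, and at 2 dpi to 95.1, 97.1 and 96.6%. At 3.5 dpi it did so for 64.3, 18.8, 5.56 and 66.7%, and all 4 mice were under every uninjured mouse. In these mice BBKNN called 35.7, 81.2, 91.7 and 33.3% of the Harmony tenocytes pro-remodeling FAPs. Of the 18 types measured in both groups, 27.8% were lower without overlap at 3.5 dpi, and the tenocyte difference of -59.0 points was the 3rd largest fall among them. Mouse A stood apart at 5 dpi, with 17.9% of its Harmony tenocytes kept by BBKNN, against 85.8% in mouse B and 100% in mouse C. At 7 dpi the share was back at 93.6, 88.6 and 97.9%.

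Scanorama split the same mice. It kept 94.1, 97.6, 97.3 and 95.7% of the Harmony tenocytes of uninjured mice, but 64.3, 25, 8.33 and 72.2% at 3.5 dpi, and 20.5, 79.6 and 100% at 5 dpi. At 3.5 dpi it called 21.4, 56.2, 77.8 and 27.8% of the Harmony tenocytes adipogenic FAPs. The difference of -53.7 points was the largest fall of 14 types, of which 21.4% were lower without overlap. At 3.5 dpi, where Harmony placed tenocytes at 0.513% of cells, BBKNN placed them at 0.185% ± 0.135 (n = 4). Scanorama, which also gave the name to other cells, placed them at 0.671, 0.646, 0.311 and 0.770% in mice A to D.

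**Figure D2:**
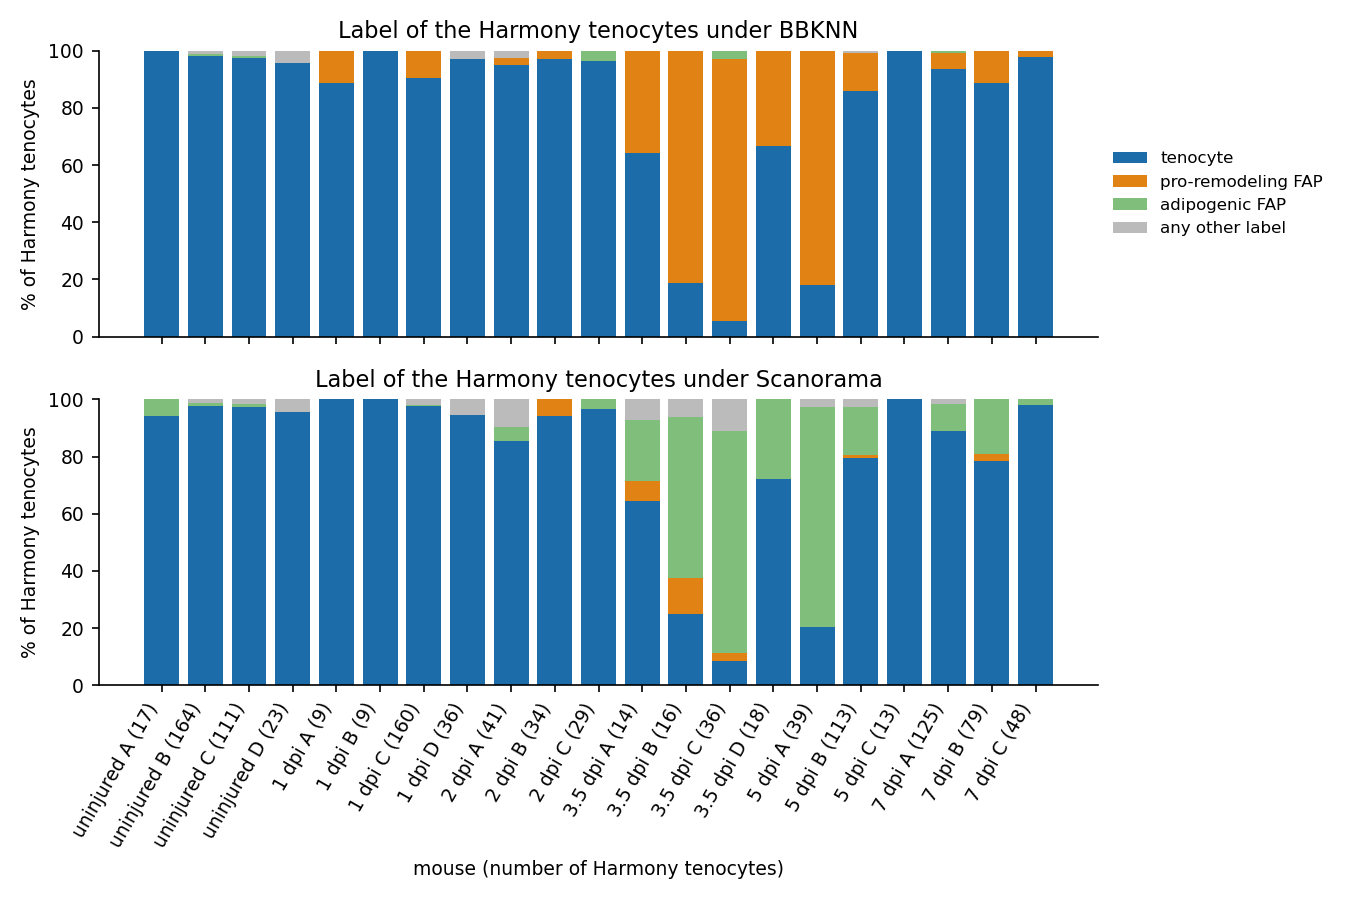
Labels that BBKNN (top) and Scanorama (bottom) gave to the Harmony tenocytes of each mouse, as a percent of those tenocytes. BBKNN keeps the tenocyte name for 5.56 and 18.8% of cells in 3.5 dpi mice C and B, 64.3 and 66.7% in mice A and D, and 17.9% in 5 dpi mouse A, against 95.7 to 100% in uninjured mice.

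In the opposite direction Scanorama used the name more widely. Of the 2471 cells it called tenocytes, 39.2% were Harmony tenocytes, 32.3% were pro-remodeling, 14.8% adipogenic and 12.7% stem FAPs. The extra cells lay early after injury: of Scanorama tenocytes at 1 dpi, Harmony called FAPs 88 of 99 in mouse A, 26 of 35 in mouse B, 488 of 648 in mouse C and 240 of 274 in mouse D. Under Scanorama the tenocyte share of cells at 1 dpi was 3.40, 2.92, 14.3 and 7.14%, against 0.309, 0.752, 3.53 and 0.938% under Harmony. BBKNN was the closer match, as 96.2% of its 1021 tenocytes were also Harmony tenocytes.

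Tenocytes that BBKNN called pro-remodeling FAPs, the contested cells here, differed from those whose name it shared within the same mouse. In the 7 mice with at least 5 cells of each kind, the shared cells had fewer UMIs than the contested ones in 6 mice (mean difference -0.63 ± 0.52 on the log2 scale). Their mitochondrial share was higher in 7 of 7 mice (1.37 ± 1.07 points of UMIs), and their lincRNA share in 6 of 7 (0.439 points). The contested cells averaged 13.97 log2 UMIs, next to 13.94 for pro-remodeling FAPs of these mice. These are descriptions with no test, since the labels came from the cells' own expression.

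Taken by the Harmony label, tenocytes had more UMIs per cell after injury, most of all at 3.5 dpi. The median tenocyte had 4570, 3218, 3954 and 6905 UMIs in uninjured mice A to D. At 1 dpi the medians were 7180, 9509, 10831 and 10719, and at 2 dpi 5542, 8780 and 4741. All 1 dpi mice were above all uninjured mice, while the 2 dpi mice overlapped them. The highest values came at 3.5 dpi, with 17616, 24929, 17978 and 11848. At 5 dpi the medians were 19303, 9279 and 8634, and at 7 dpi 9862, 9706 and 12902. Every mouse from 3.5 dpi on was above every uninjured mouse.

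Over mice this was a 3.90-fold level at 3.5 dpi relative to uninjured muscle (geometric means of 17477 and 4476 UMIs, a log2 difference of 1.97, SE 0.32), and 2.58-fold and 2.40-fold at 5 and 7 dpi. The time course passed (permutation test, adjusted p = 0.00281 over all types and measures). UMIs passed in 30.4% of types. The median over all cells of a library was also higher, from 3115 to 4774 UMIs in uninjured mice to between 8875 and 14614 at 3.5 dpi, and reads in cells rose from 44.2 to 56.3% to between 94.2 and 94.8%. The part of library depth in the tenocyte difference was not tested. With tenocytes that BBKNN also named, the difference at 3.5 dpi was 1.25 (permutation test over time, adjusted p = 0.0360). Only mice A and D had at least 5 such cells at 3.5 dpi, with medians of 11872 and 9715 UMIs. Among such cells 3.5 dpi was not set apart from later times. Their medians were 15237, 8927 and 8634 at 5 dpi, and 9352, 8098 and 12689 at 7 dpi.

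Genes detected per tenocyte followed the UMIs. The medians were 1575, 1206, 1530 and 2185 genes in uninjured mice and 4154, 5290, 4544 and 3348 at 3.5 dpi, with no overlap. The difference was 1.43 on the log2 scale, or 2.69-fold (permutation test over time, adjusted p = 0.00222, 30.4% of types). Cells could not be thinned to a common depth from totals alone. Genes were therefore also taken at a fixed number of UMIs, as the distance from a curve fitted over all cells of every type. The tenocytes then differed by 0.18 log2 units at 3.5 dpi (adjusted p = 0.0245), from -0.11 ± 0.05 in uninjured mice to 0.07 ± 0.06.

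**Figure D3:**
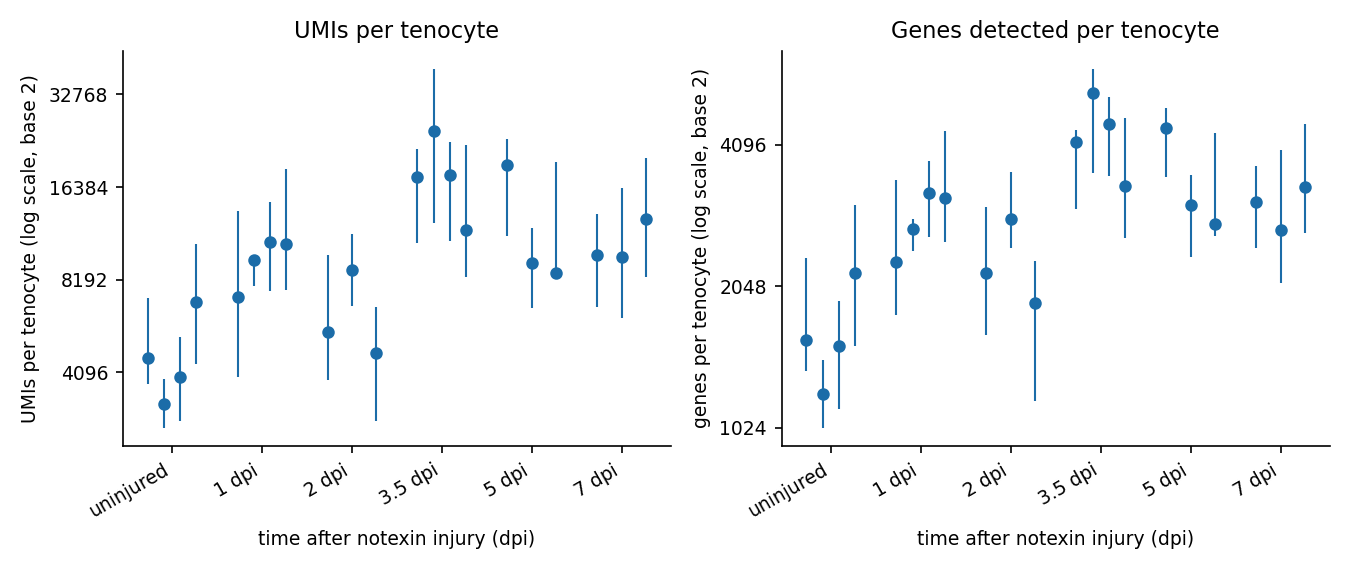
UMIs (left) and genes (right) per tenocyte by mouse on log axes, ordered by days after notexin. Points are the median tenocyte of a mouse and vertical lines span its lower to upper quartile. The 3.5 dpi medians of 11848 to 24929 UMIs lie above the uninjured medians of 3218 to 6905.

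What the UMIs were made of also changed. Of 11 measures of tenocytes tested over time, 6 passed: UMIs, genes, and the mitochondrial, heat shock, lincRNA and protein-coding shares. Over all types 36.3% of the 259 tests passed. In the exact contrasts between single times 0 of 99 tenocyte tests passed, the lowest adjusted p being 0.129. The smallest p such a contrast can give is 0.0286, or 0.1 for 3 against 3 mice. Adjusted over 99 tests it could hardly pass, so the 0 says little about single times. Of the 10 measures that could be compared between 3.5 dpi and uninjured mice, 7 had no overlap between the groups, beside 40.5% over all types. The same count was 5 of 10 at 1 dpi (36.4%), 1 of 10 at 2 dpi (20.5%), 3 of 11 at 5 dpi (24%) and 3 of 10 at 7 dpi (20.5%). Between successive times it was 3 of 10 from 1 to 2 dpi (17.9%), 7 of 10 from 2 to 3.5 dpi (20.3%), 1 of 11 from 3.5 to 5 dpi (20.9%) and 1 of 11 from 5 to 7 dpi (13.4%).

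Mitochondrial genes encode subunits of the respiratory chain, and a high share of their RNA is often read as a sign of stressed or broken cells. The share fell from 15.5, 20.8, 16.6 and 9.56% of UMIs in the median tenocyte of uninjured mice to 8.52, 7.72, 5.39 and 5.78% at 1 dpi. It was 5.43, 6.12 and 9.46% at 2 dpi, 4.99, 5.42, 4.63 and 6.21% at 3.5 dpi, 4.80, 4.58 and 5.66% at 5 dpi, and 6.45, 7.14 and 7.60% at 7 dpi. Every injured mouse was under every uninjured mouse. The largest difference was -10.6 points at 5 dpi (SE 2.35, permutation test over time, adjusted p = 0.0119, 56.5% of types).

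Tenocytes over 20% mitochondrial UMIs were 23.5, 53.0, 36.0 and 4.35% of those of uninjured mice and at most 8.33% in any injured mouse. A stricter filter, with minima of 1000 genes and 2000 UMIs and a mitochondrial maximum of 15%, kept 35.3, 14.6, 39.6 and 69.6% of the tenocytes of uninjured mice A to D, and 77.8 to 100% of those of injured mice. Among the cells it kept, the mitochondrial difference at 5 dpi was -5.84 points (permutation test over time, adjusted p = 0.0171). The mitochondrial share of all cells fell in the same libraries, as given above, and the part of this library-wide difference in the tenocyte fall was not tested.

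Heat shock proteins are chaperones that cells make when their proteins unfold. Their share was highest at 1 dpi, at 0.872, 0.860, 0.782 and 0.861% of UMIs, above every uninjured mouse (0.293, 0.682, 0.622 and 0.518%). It was 0.653, 0.682 and 0.553% at 2 dpi, under all 1 dpi mice, and 0.778, 0.775, 0.770 and 0.691% at 3.5 dpi. The values at 5 dpi (0.744, 0.621 and 0.506%) and 7 dpi (0.623, 0.616 and 0.488%) overlapped uninjured muscle. The difference at 1 dpi was 0.315 points (SE 0.0881, permutation test over time, adjusted p = 0.0142, 39.1% of types). The direction at 1 dpi turned under the stricter filter on cells, to -0.0174 points, with 6 to 44 tenocytes left in each uninjured mouse. The call ended with means in place of medians (adjusted p = 0.0860) and with at least 10 tenocytes per mouse (adjusted p = 0.0884).

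Long intergenic non-coding RNAs (lincRNAs) fell and protein-coding transcripts rose at 3.5 dpi. The lincRNA share was 2.82, 2.47, 3.07 and 3.49% of UMIs in uninjured mice and 1.41, 0.795, 0.954 and 1.81% at 3.5 dpi, with no overlap and a difference of -1.72 points (SE 0.315, permutation test over time, adjusted p = 0.0333, 34.8% of types). The protein-coding share went from 86.5, 89.5, 87.6 and 88.4% to 92.5, 94.2, 94.5 and 93.1%, a difference of 5.58 points (SE 0.795, permutation test, adjusted p = 0.0333, 69.6% of types). The mitochondrial and protein-coding sets overlap, since the shares sum to over 100% in 438 tenocytes. Neither call held with the tenocytes that BBKNN also named, which leaves 2 mice with enough cells at 3.5 dpi. The lincRNA difference was then -0.70 (permutation test, adjusted p = 0.312) and the protein-coding difference 4.76 (adjusted p = 0.143). The lincRNA call was also lost with means over cells (adjusted p = 0.0523) and under the stricter filter (0.0934). Leaving out 1 mouse ended the lincRNA call for 8 of 21 mice and the protein-coding call for 7, namely mice A, C and D of the uninjured group for both, 1 dpi A and C and 3.5 dpi A, B and C for lincRNAs, and all 4 mice of 3.5 dpi for protein-coding transcripts.

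Ribosomal protein genes, which code for the parts of the translation machinery, did not pass (adjusted p = 0.0769, 56.5% of types). Their share was 10.9, 10.0, 9.68 and 11.2% in uninjured mice and 13.4, 12.6, 13.8 and 13.1% at 3.5 dpi, a difference of 2.77 points with no overlap. It passed in the permutation test without 1 dpi mouse B (adjusted p = 0.00895), with at least 10 tenocytes per mouse (0.0126) and with means over cells (0.00204). Among tenocytes that BBKNN also named, only mice A and D had enough cells at 3.5 dpi, with 11.5 and 13.4%. Mouse A was then no longer above uninjured mouse D (11.5%). The transcription factor share lay between 3.12 and 5.42% in all mice (adjusted p = 0.110, 60.9% of types) and passed without uninjured mouse A (0.0296), with means over cells (0.0425) and under the stricter filter (0.0386), where the difference at 3.5 dpi was -1.47 points in place of -0.93. Antisense transcripts (adjusted p = 0.169), bidirectional promoter lncRNAs (1) and small nuclear RNAs (0.555) did not pass.

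Small RNA classes were sparse. The median tenocyte had no UMI from small nucleolar RNA or miRNA genes in any of the 21 mice. A tenocyte with any UMI of the class made up 14.6 to 47.9% of a mouse's tenocytes for small nucleolar RNAs, 5.49 to 46.2% for miRNA genes and 4.88 to 53.8% for small nuclear RNAs, and these shares of cells were not tested.

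**Figure D4:**
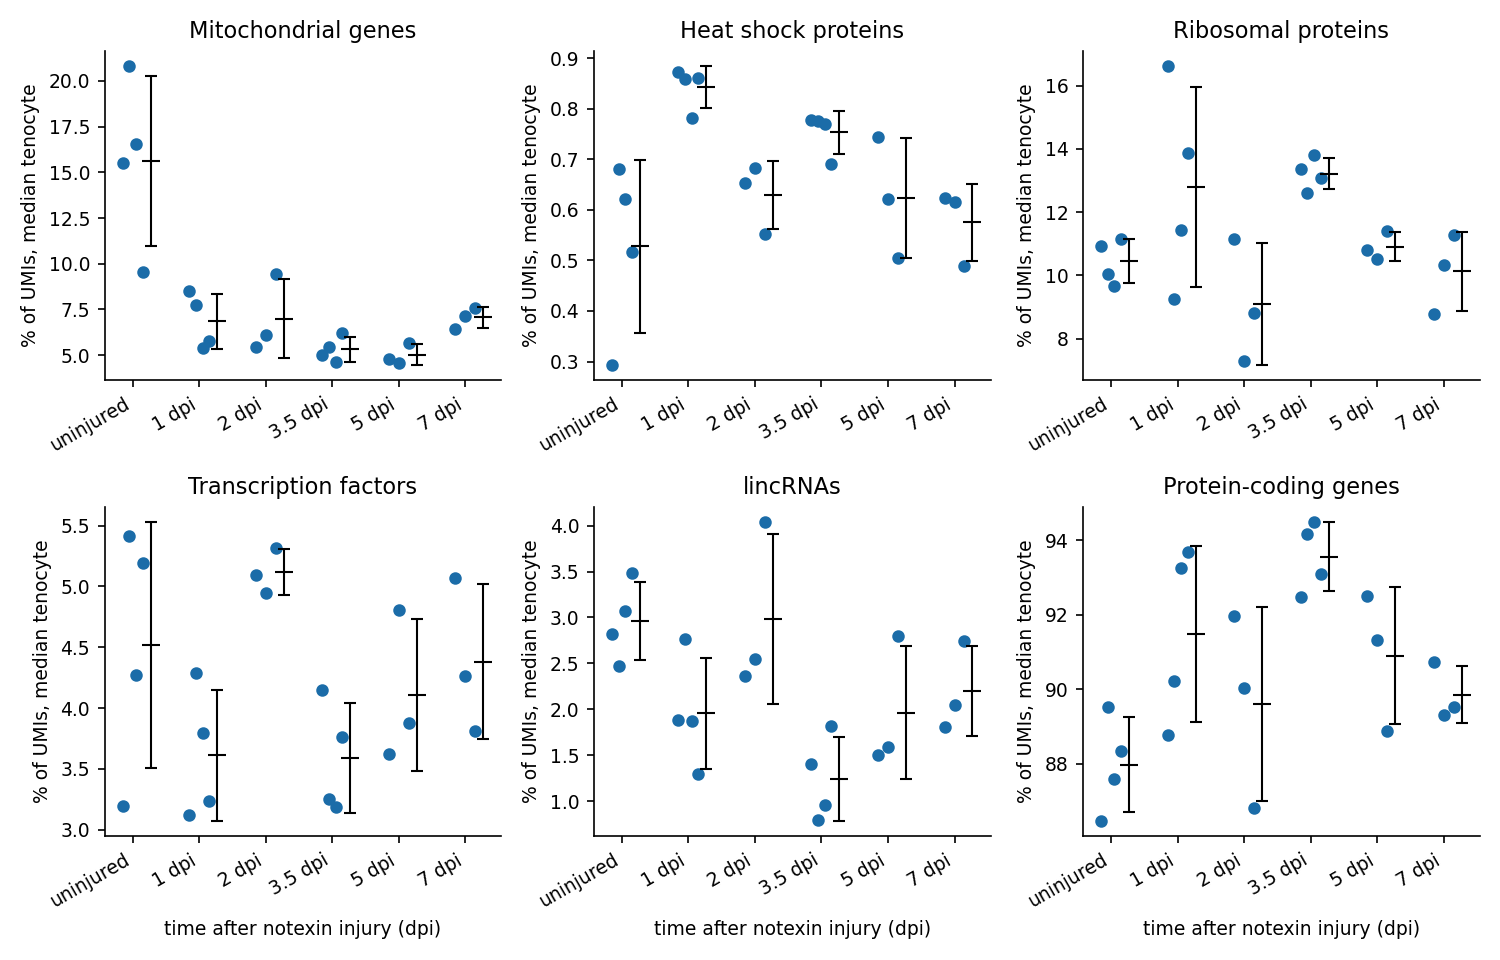
Percent of UMIs from each gene set in the median tenocyte of each mouse, by days after notexin, with the group mean ± SD. Axes do not start at 0. Mitochondrial shares of all injured mice (4.58 to 9.46%) lie under those of uninjured mice (9.56 to 20.8%).

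Tenocytes and FAPs of the same mouse were then compared, to see in which measures tenocytes took a course of their own. The within-mouse difference, tenocyte median minus FAP median, was tested over time for each FAP subtype, and 13 of 37 tests passed (35.1%). The adjusted p values are for the whole time course, and changes at single times were not tested on their own. Differences in level between the types are described without a test, because the types are clusters of the same cells. All Harmony tenocytes entered these differences. At 3.5 dpi BBKNN called 35.7, 81.2, 91.7 and 33.3% of them pro-remodeling FAPs in mice A to D, and the part of these cells in the differences was not tested.

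The ribosomal protein share separated most from pro-remodeling FAPs. In uninjured mice tenocytes were above pro-remodeling FAPs by 1.89 ± 0.703 points (1.32 to 2.90, n = 4). At 1 dpi they were under them, at a difference of -5.00 ± 1.17 (-6.15 to -3.84, n = 4), as at 2 dpi (-4.50 ± 3.14, n = 3). Neither group overlapped the uninjured mice. The gap closed to -1.81 ± 1.26 at 3.5 dpi, -0.600 ± 0.239 at 5 dpi and 0.310 ± 1.25 at 7 dpi. Pro-remodeling FAPs went from 8.56% ± 0.905 to 17.8% ± 2.09 at 1 dpi, while tenocytes at 1 dpi spread from 9.26 to 16.6%. The change in difference at 1 dpi was -6.89 points (permutation test over time, adjusted p = 0.00111). It was -3.42 against stem FAPs (adjusted p = 0.00355) and -4.00 against adipogenic FAPs (adjusted p = 0.0400), the last being lost under the stricter filter (0.0539) and without any of 12 mice, of every group other than 2 dpi (0.0517 to 0.0662). With means over cells the changes were -2.06 against stem and -1.80 against adipogenic FAPs.

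The heat shock share ran lower in tenocytes than in pro-remodeling FAPs in 19 of 21 mice. The difference was -0.280 ± 0.168 in uninjured mice, -0.477 ± 0.0668 at 1 dpi and -0.347 ± 0.0689 at 2 dpi, and it was near 0 at 3.5 dpi (0.00738 ± 0.0773). Relative to uninjured mice it moved by 0.287 points at 3.5 dpi (permutation test over time, adjusted p = 0.00111), and by 0.0554 under the stricter filter. Heat shock differences from adipogenic and stem FAPs did not pass (adjusted p = 0.483 and 0.136).

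Mitochondrial shares of tenocytes were above those of pro-remodeling FAPs in 21 of 21 mice, above stem FAPs in 16 and above adipogenic FAPs in 15. The excess was widest in uninjured muscle, at 4.21 ± 1.19 points over pro-remodeling, 5.45 ± 2.04 over stem and 3.51 ± 0.856 over adipogenic FAPs. At 3.5 dpi it was 0.622 ± 0.711, 0.0953 ± 1.29 and -0.0142 ± 0.905. All 3 time courses of the difference passed (permutation tests, adjusted p = 0.0213, 0.0155 and 0.00240, in the same order), with changes of -3.58 points at 3.5 dpi, -5.78 at 5 dpi and -4.34 at 2 dpi. Under the stricter filter these changes were -0.584, -2.01 and -1.65, still past the threshold. The calls against pro-remodeling and adipogenic FAPs were lost with means over cells (0.0995 and 0.0843). Without uninjured mouse C the adjusted p against pro-remodeling FAPs was 0.0520.

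The lincRNA excess of Harmony tenocytes over each FAP subtype had its highest mean at 2 dpi and was near 0 at 3.5 dpi. In 3.5 dpi mice A and D the median of all Harmony tenocytes was 1.41 and 1.81% of UMIs. For those that BBKNN also named it was 2.23 and 2.23%. The excess over pro-remodeling FAPs was 0.142 ± 0.172 points in uninjured mice, 0.945 ± 0.483 at 1 dpi, 1.27 ± 0.615 at 2 dpi and 0.0608 ± 0.459 at 3.5 dpi (adjusted p = 0.0213 by permutation, lost without 2 dpi mouse A or B at 0.0568 and 0.0555). Over adipogenic FAPs it was 1.32 ± 0.435 at 2 dpi (adjusted p = 0.0141, lost without 2 dpi mouse B at 0.0572 and under the stricter filter at 0.112). Over stem FAPs it was 0.944 ± 0.168 in uninjured mice, 1.64 ± 0.190 at 2 dpi and -0.0207 ± 0.434 at 3.5 dpi (permutation test, adjusted p = 0.00111). Antisense transcripts moved by 0.0326 points against pro-remodeling FAPs at 2 dpi (permutation test over time, adjusted p = 0.0155).

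RNA per cell changed relative to stem FAPs, the subtype named as the progenitor-like state. On the log2 scale the tenocyte had fewer UMIs than the stem FAP in uninjured mice (-0.76 ± 0.19, n = 4) and at 1 dpi (-1.17 ± 0.85, n = 4). It had about as many at 3.5 dpi (-0.02 ± 0.54) and more at 7 dpi (0.51 ± 0.49, n = 3), a shift of 1.27 (permutation test over time, adjusted p = 0.0142). Genes shifted by 0.89 at 5 dpi (permutation test over time, adjusted p = 0.0141). Under the stricter filter the shifts were 0.51 for UMIs and 0.49 for genes. UMIs gave no such call against pro-remodeling or adipogenic FAPs (adjusted p = 0.311 and 0.186). The comparison within a mouse shares the library, so its depth enters both sides.

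**Figure D5:**
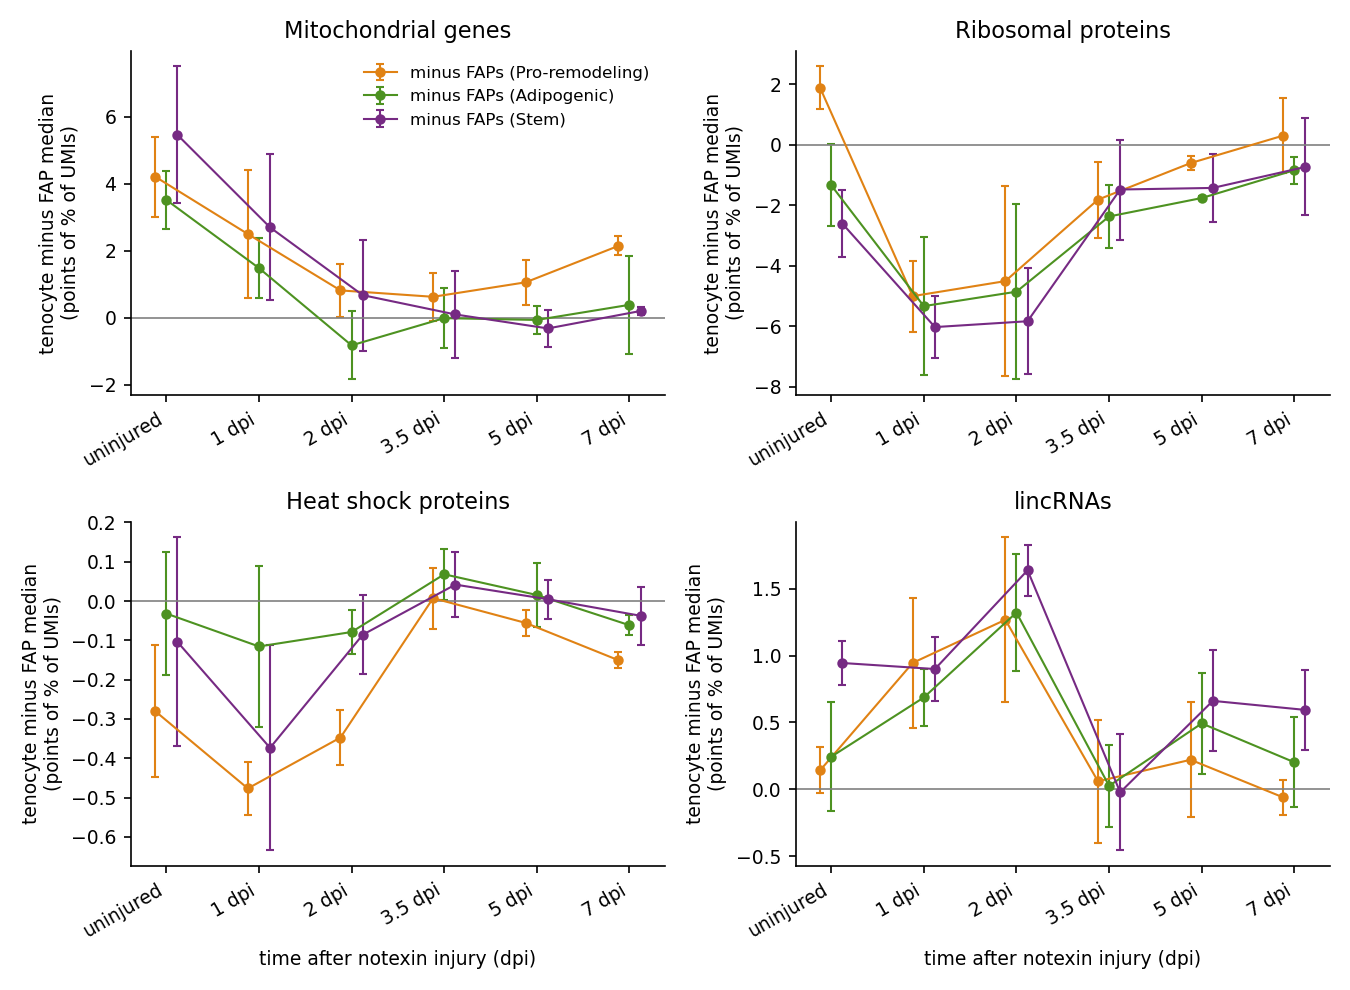
Tenocyte median minus the median of each FAP subtype in the same mouse, in points of percent of UMIs, by days after notexin. Points are group means and bars are the SD over mice (3 or 4 mice). In single mice, which are not drawn, the ribosomal protein difference from pro-remodeling FAPs lay between 1.32 and 2.90 when uninjured and between -6.15 and -3.84 at 1 dpi.

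DoubletFinder scores, which rise for cells resembling a mixture of cell types, were above the library's median in the median tenocyte of 20 of 21 mice, the exception being uninjured mouse B (0.0571 against 0.0929). The median tenocyte had a score of 0.0571 to 0.322 in uninjured mice, 0.291 to 0.409 at 1 dpi and 0.342 to 0.367 at 3.5 dpi. All cells of a library had a median of 0.0645 to 0.240. Doublets had been removed before deposit, and the part of the score in the tenocyte results was not tested.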

How the data were processed

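Single-cell RNA sequencing (10x Chromium v3) of tibialis anterior from 21 mice was analysed from per-cell tables, each replicate being an independent animal. The submitters' processing notes name Cell Ranger 3.1.0, Seurat 3.1.5 and mm10. UMI totals per cell are expected counts, because the authors removed ambient RNA with SoupX before depositing them. Gene set shares are the percent of a cell's UMIs, as deposited by the authors, who also removed doublets with DoubletFinder and gave its score per cell and the SoupX contamination per sample as a fraction. The study's filters were 750 genes, 1000 UMIs and 30% mitochondrial UMIs. Cells per sample were between 974 and 10556, and UMIs between 5602464 and 70730171.

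Cells were counted by mouse and deposited Harmony label in Python 3.11.15 (numpy 2.4.6, pandas 2.3.3, scipy 1.17.1, matplotlib 3.10.9). Mouse medians needed at least 5 cells. Time courses were tested by permuting the F statistic over mice (100000 resamples, smallest p 1e-05), single times by two-sided exact permutation (smallest p 0.0286 for 4 against 4 or 3 mice and 0.1 for 3 against 3), both with Benjamini-Hochberg adjustment at 0.05. Alternatives included edgeR 4.0.16 (R 4.3.3). Statistics were tested on simulated data. The text names tenocytes, the 3 FAP subtypes, any BBKNN or Scanorama label holding at least 1% of Harmony tenocytes or at least 1% made of them, and every per-cell measure. Members and lists were chosen with earlier results of these data known. The label before re-integration was added as an alternative after seeing the data.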

Additional observations from a re-analysis of the deposited data

Results flagged for a closer look

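The heat shock protein share of the median tenocyte stood far from the other mice of its group in 2 of the 36 sets of 4 mice examined: 1 dpi mouse C at 0.782% of UMIs and 3.5 dpi mouse D at 0.691%, both the lowest of their groups. Chance gives about 1 in 20 such values.

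Tenocytes and FAPs of the same mice moved by different amounts in 13 of 37 tests, which cover 7 measures, each given as the change from uninjured mice at the time of the largest difference. Against pro-remodeling FAPs these were the mitochondrial share (-3.58 points, 3.5 dpi), the ribosomal protein share (-6.89, 1 dpi), the heat shock share (0.287, 3.5 dpi), the lincRNA share (1.12, 2 dpi) and the antisense share (0.0326, 2 dpi). Against adipogenic FAPs they were the mitochondrial (-4.34, 2 dpi), ribosomal protein (-4.00, 1 dpi) and lincRNA shares (1.08, 2 dpi). Against stem FAPs they were UMIs (1.27 log2 units, 7 dpi), genes (0.89 log2 units, 5 dpi) and the mitochondrial (-5.78, 5 dpi), ribosomal protein (-3.42, 1 dpi) and lincRNA shares (-0.965, 3.5 dpi). All 13 rest on permutation tests over the whole time course, with adjusted p between 0.00111 and 0.0400.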

How the results depend on the processing

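Of 1018 alternative values, 942 kept their direction and side of the threshold, 43 lost the call, 22 gained it and 11 reversed. The time course of the tenocyte share, not past the threshold under Harmony, passed with the labels of BBKNN (-2.30 points at 3.5 dpi) and Scanorama (-1.90, its largest change being the rise at 1 dpi), with tenocytes by all methods (-2.28), with the label before re-integration (-2.19, chosen after seeing the data), with a centred log ratio (-2.87 log2 units) and in edgeR with TMM (-1.89 log2) and without (-2.30 log2). It did not pass with untransformed shares, with a non-immune denominator, with labelled cells as denominator or under the stricter filter on cells. Leaving out 1 mouse gave -2.61 to -1.26. The share of tenocytes plus FAPs passed with BBKNN (-9.81), Scanorama (-7.80), adipogenic FAPs alone (-20.2) and the replicate block (-8.12, permutation p = 0.00289), and ranged from -10.5 to -6.45 without 1 mouse. The cause was not tested. The contrasts of the tenocyte share gave 0 calls throughout. Tenocyte measures passing numbered 4 to 7 and FAP differences 11 to 17 without 1 mouse.

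Reversed differences were, for the share against uninjured muscle, 1 dpi under Scanorama (4.44) and with non-immune cells (2.90), 2 dpi likewise (0.196 and 0.404), and 7 dpi with non-immune cells (0.273), a stricter filter (0.395) and without uninjured mouse B (0.253, range without 1 mouse -1.10 to 0.253). So were 5 against 3.5 dpi with non-immune cells (-0.0904), 2 against 1 dpi without 1 dpi mouse C (0.0132, range -1.06 to 0.0132), heat shock at 1 dpi under the stricter filter (-0.0174) and bidirectional promoter lncRNAs without uninjured mouse D (1.01e-05, range -0.00798 to 1.01e-05). With letters as a replicate block the Harmony share gave -2.02 (permutation test, adjusted p = 0.0677). Under this block the mitochondrial call was lost (adjusted p = 0.0569) and the protein-coding call too (adjusted p = 0.0756). The cell type shares showed no pairing by letter: 7 of 21 mice were on average closest to their own letter, and 48 same-letter pairs correlated between -0.851 and 0.667 (median 0.0175). This comparison cannot exclude a pairing, because the study collected several time points on the same day and the labels do not say whether letters mark such days. Groups of 3 or 4 mice and 9 to 164 tenocytes per mouse limit the precision.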
